A study of Drosophila melanogaster with 3 samples.

Results

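Binding of the transcription factor Sox15 was examined at 9 Drosophila genes that transduce or modulate the Wingless signal: arm, dsh, sgg, fz, fz2, dlp, pan, CtBP and nkd. The 9 genes, of 13945 protein-coding genes, were chosen by name with earlier results of these data known, and are a part of the pathway, of which 33 other genes are counted at the end. For each gene, a binding summit was assigned when it lay in the gene body or in the 5 kb upstream of it. The measurements came from chromatin immunoprecipitation and sequencing (ChIP-seq) of whole prepupae, the short stage between the larva and the pupa, in 3 biological replicates of 1 group. All animals were from a transgenic line, called Sox15-GFP, that stably expressed Sox15 with an eGFP tag at its C-terminus, and the labels' description gives an antibody against GFP for the pull-down, while their antibody field names Sox15. Males and females were pooled, the age of the animals was unknown, and the whole organism was used, so binding in different tissues cannot be told apart. There was no second genotype, treatment or time point, and no control library was analysed here.

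Wingless is a secreted Wnt ligand that binds Frizzled receptors at the cell surface. Without it, a destruction complex that includes the kinase Shaggy marks Armadillo, the fly beta-catenin, for degradation. With it, Dishevelled relays the signal, Armadillo accumulates, enters the nucleus and joins Pangolin, the fly TCF, on target genes, where corepressors hold transcription down in the absence of signal. Many of these components are used again in patterning of the wing, legs and epidermis, tissues that are remodelled in the prepupa. Sox15, also known as SoxF, belongs to the Sox family, whose members contact DNA through a high-mobility-group domain.

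The authors' peak lists give each peak a signal value. Its scale is not stated, so signals and ranks were read only within a list. The reproducible set, selected by irreproducible discovery rate (IDR), held 4555 peaks with signals from 116.6 to 3852. It was the part of the pooled list of 14164 peaks with the highest signal. The relaxed lists called in the single replicates, which by their name also include background, held 19304, 19033 and 16102 peaks. Percentiles given here are of the signal within 1 replicate list, with 100 for the strongest peak.

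The sequences that carried the strongest summits and the promoter summits are shown first, because the results on position and on sequence patterns refer to them. Each is the plus strand of the RefSeq Release 6 sequence, in dm6 coordinates, over 101 bases centred on the summit. Capitals mark matches, on either strand, to any of 9 short patterns that were sought. These were AACAAT for the core of Sox sites, ACAAAG for a form related to TCF and Sox sites, CTTTGA for the core of TCF sites, TATCGATA for the DNA replication-related element, TATAAA for the core of the TATA box, TAATTA for the homeodomain core, AGATAA for GATA factors, GAGAG for the GAGA repeat and CAGCTG for an E-box. The 4 promoter summits in the member regions were these.
sgg promoter, chrX:2646385-2646485: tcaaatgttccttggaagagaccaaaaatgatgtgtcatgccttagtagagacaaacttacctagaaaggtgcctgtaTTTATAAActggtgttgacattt
dlp promoter, chr3L:14632359-14632459: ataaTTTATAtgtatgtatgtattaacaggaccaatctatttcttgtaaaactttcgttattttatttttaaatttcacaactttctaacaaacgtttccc
nkd promoter, chr3L:19045566-19045666: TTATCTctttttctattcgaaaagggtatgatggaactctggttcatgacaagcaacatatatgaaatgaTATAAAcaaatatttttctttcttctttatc
promoter of RpS3A upstream of pan, chr4:67256-67356: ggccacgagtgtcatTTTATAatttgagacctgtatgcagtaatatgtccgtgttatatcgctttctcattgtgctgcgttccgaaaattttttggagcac
The strongest summits of the other members, all in introns, and those of the first introns of dlp and nkd were these.
CG1737 intron upstream of dsh, chrX:11351502-11351602: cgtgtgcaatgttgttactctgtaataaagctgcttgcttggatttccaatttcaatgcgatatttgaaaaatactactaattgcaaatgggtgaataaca
fz intron 4, chr3L:14364844-14364944: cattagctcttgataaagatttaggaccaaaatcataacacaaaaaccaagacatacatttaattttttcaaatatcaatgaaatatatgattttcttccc
fz2 intron, chr3L:19194209-19194309: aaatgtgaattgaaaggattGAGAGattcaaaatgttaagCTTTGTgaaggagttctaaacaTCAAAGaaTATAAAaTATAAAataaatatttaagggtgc
dlp first intron, strongest, chr3L:14636880-14636980: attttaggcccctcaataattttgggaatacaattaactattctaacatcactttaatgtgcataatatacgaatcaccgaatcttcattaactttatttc
dlp first intron, with AACAAT repeated, chr3L:14635327-14635427: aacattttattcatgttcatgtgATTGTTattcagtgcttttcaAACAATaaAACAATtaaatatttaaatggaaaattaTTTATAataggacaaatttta
nkd first intron, chr3L:19041792-19041892: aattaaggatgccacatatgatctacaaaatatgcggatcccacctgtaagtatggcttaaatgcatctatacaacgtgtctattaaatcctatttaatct
CtBP first intron, chr3R:13012464-13012564: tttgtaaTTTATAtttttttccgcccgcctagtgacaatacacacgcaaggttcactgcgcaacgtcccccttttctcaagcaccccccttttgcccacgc

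Of the 9 genes, 8 had an IDR summit in their region, and arm was the exception. Over all protein-coding genes, 32.8% had one. That share differed by gene length, with 29.3% of genes shorter than 10 kb, 52.5% of genes of 10 to 50 kb and 63.2% of genes of 50 kb and over. Of the members, 5 were 10 to 50 kb long, 2 were longer and 2 were shorter, so the count is to be read against these shares. An IDR summit lay within 1000 bp of an own start site in 4 of the 9 genes (sgg, dlp, CtBP and nkd), against 19.3% of all protein-coding genes. This last share was not split by gene length or by number of start sites, which was 11 for sgg and 3 for CtBP.

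The 9 regions together held 35 IDR summits in 431.7 kb. That is 0.811 summits per 10 kb, compared with 0.385 over the regions of all protein-coding genes and 0.353 over those of genes of 10 kb and over. The summits were unevenly spread, since fz, fz2, dlp and nkd held 29 of the 35. As many as the 7 summits of dlp or of nkd were found in 20 of the 1670 genes of 10 to 50 kb, or 1.20%. As many as the 9 of fz2 were found in 5.86% of the 307 genes of 50 kb and over, and as many as the 6 of fz in 15.3%. The other members had counts more common for their length. As many as the 3 of sgg were found in 16.6% of genes of 10 to 50 kb, and as many as the 1 of pan or CtBP in 52.5%. As many as the 1 of dsh were found in 29.3% of genes shorter than 10 kb, and arm had 0. Each share includes the member itself. These are descriptions without a test, because the genes were listed with earlier results of these data known.

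**Figure D1:**
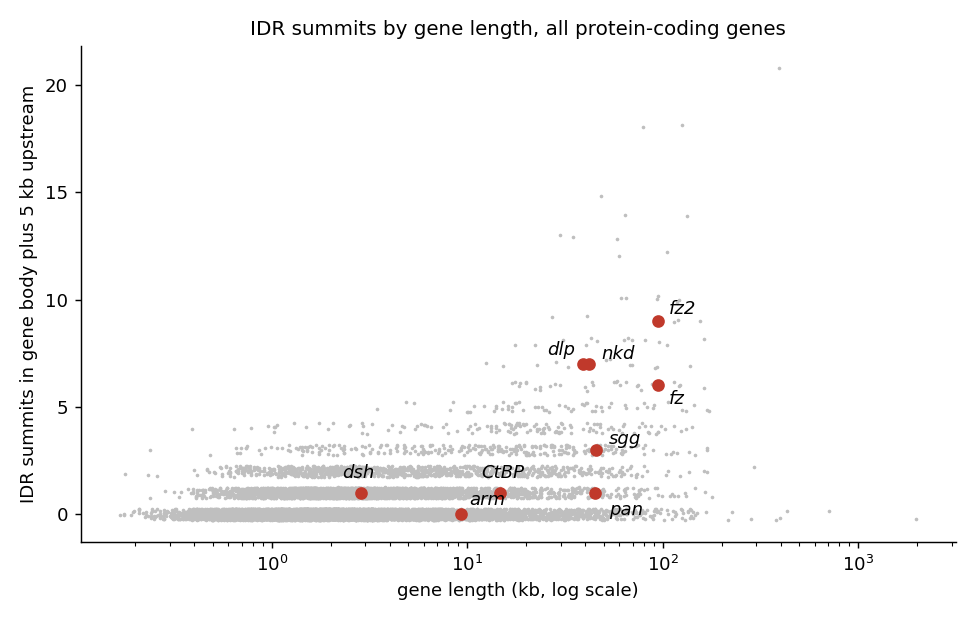
Number of IDR summits in the gene body plus 5 kb upstream (vertical axis) against gene length in kb (horizontal axis, log scale) for all 13945 protein-coding genes (grey points, with a small vertical jitter) and the 9 members (red points, labelled). The genes dlp and nkd have 7 summits each at lengths of 39.0 and 41.7 kb, while pan, at 44.9 kb, has 1.

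The positions of these summits along the genes differed from member to member. The maps place them relative to the first start site of each gene.

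**Figure D2:**
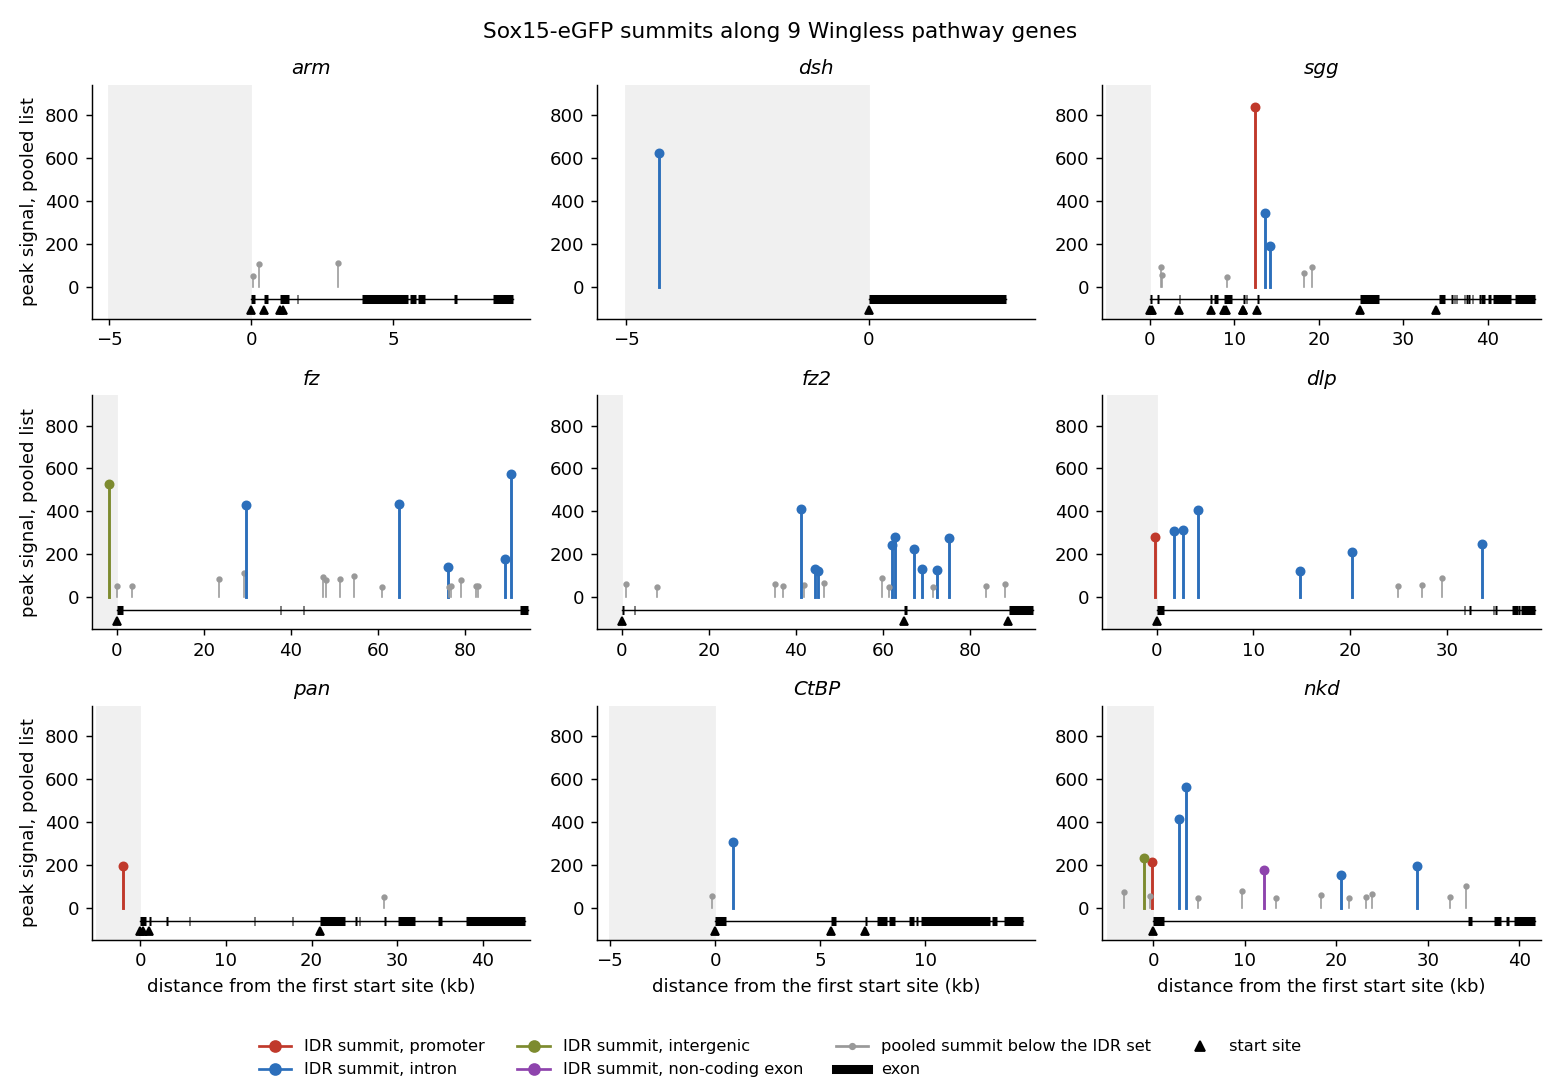
Summits of the pooled list along the 9 genes, with the distance from the first start site in kb, in the direction of transcription (horizontal axis), and the signal in the pooled list (vertical axis). Coloured stems are IDR summits by feature class, grey stems are weaker pooled summits, black blocks are exons, triangles are start sites, and the grey band is the 5 kb upstream. The promoter summit of sgg, with a signal of 839.9, is the tallest, and arm has grey stems only.

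Among the transducers, armadillo (arm, FBgn0000117, X, 1891401 to 1900646, minus strand, 9246 bp) encodes beta-catenin itself. It had 0 IDR summits. The strongest of its 3 pooled summits, in an intron 1952 bp downstream of a start site, had a signal of 109.9 at rank 4836, just under the IDR minimum of 116.6. At this intron site the signals were 41.6, 31.8 and 39.8 in replicates 1, 2 and 3, with ranks of 6577, 4560 and 2891. A second site, in a promoter, had signals of 44.5, 28.0 and 23.1 in the same order. Peaks were therefore present at arm in every replicate list, and their pooled signals were below the level of the reproducible set. The intron site was nevertheless among the 4555 strongest peaks in replicate 3, though not in replicates 1 and 2.

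Dishevelled (dsh, FBgn0000499, X, 11355881 to 11358724, plus strand, 2844 bp), the scaffold that relays the receptor signal, had 1 summit in its region and none in its body. The summit lay 4329 bp upstream of the dsh start site, inside an intron of the neighbouring gene CG1737, 944 bp downstream of the CG1737 start site, and also in the region of GCS1. Its pooled signal was 621, the second strongest in the 9 regions. The replicate signals were 277, 182 and 160.0, with ranks of 418, 312 and 265. By the rule it counts for dsh, although 2 other genes share it and the peaks do not say which gene it serves. With 1 kb of upstream sequence dsh had no IDR summit.

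Shaggy (sgg, FBgn0003371, X, 2633952 to 2679553, plus strand, 45602 bp) is the glycogen synthase kinase of the destruction complex and is transcribed from 11 annotated start sites. The strongest summit of all 9 regions lay 202 bp upstream of one of them, an internal start, with a pooled signal of 839.9 at rank 162 of 4555. Its replicate signals were 387, 237 and 207, with ranks of 191, 165 and 144. The summit was placed within 14 bp of the pooled one in every replicate, and its peak was narrow, at 250 bp against a median of 396 bp. In the intron that follows, 951 and 1521 bp downstream of the same start, lay 2 weaker summits. Their replicate signals were 174, 88.2 and 85 for the first and 97.8, 63.1 and 44.2 for the second. Among the 3 IDR summits of sgg, the signal was thus highest just upstream of this internal start and lowest at the one furthest into the intron.

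Of the receptors, frizzled (fz, FBgn0001085, 3L, 14274343 to 14368639, plus strand, 94297 bp) encodes a Wnt receptor that also acts in planar cell polarity. It had 1 start site and 6 IDR summits, none of them within 1000 bp of that start. The nearest lay 1764 bp upstream, in intergenic sequence, with a pooled signal of 527 and replicate signals of 277, 141 and 116. Another lay in the first intron, 29710 bp from the start, with replicate signals of 184, 145 and 97.6. The other 4 were all in intron 4, which is 49410 bp long. The strongest of these, 90551 bp from the start, had a pooled signal of 576 and replicate signals of 278, 174 and 120. Its ranks of 411, 335 and 504 put it high in every list. The weakest, 76013 bp from the start, ranked 2526, 5756 and 9230, and so was among the 4555 strongest peaks in replicate 1 alone.

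Frizzled 2 (fz2, FBgn0016797, 3L, 19140975 to 19235373, minus strand, 94399 bp) encodes a receptor with high affinity for Wingless. Its 9 IDR summits were the most of any member, and all 9 lay in introns. Their pooled signals were moderate, from 122 to 410.5. The strongest, 23611 bp upstream of the nearest internal start site, had replicate signals of 211, 117 and 83.3, and ranked 732, 725 and 975. There were 2 close pairs, with summits 603 and 597 bp apart. The pair that lay 1994 and 2597 bp upstream of an internal start site had pooled signals of 279 and 245. None of the 9 was within 1000 bp of any fz2 start site. Replicate 3 gave the lowest percentile at 3 of the 4 weakest summits, and 1 of these ranked 3296 and 3331 in replicates 1 and 2 but 12046 in replicate 3.

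At the cell surface, dally-like (dlp, FBgn0041604, 3L, 14632601 to 14671609, plus strand, 39009 bp) encodes a heparan sulphate glypican that binds Wingless outside the cell. It had 7 IDR summits over 39.0 kb, or 1.59 per 10 kb of its region, the highest density among the members. A promoter summit 192 bp upstream of its single start site had a pooled signal of 281 and replicate signals of 161, 66.1 and 46.2. The 3 next summits lay in the first intron at 1835, 2776 and 4329 bp from the start, with pooled signals of 307, 313 and 408. At the last of these the replicates gave 215, 88.5 and 107. The first intron, of 30913 bp, held 2 further summits with pooled signals of 123 and 211, and the seventh lay in a later intron with 248. The first 4 also fall in the 5 kb upstream of RecQ5, a neighbouring helicase gene, so they count for both genes.

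Among the nuclear factors, pangolin (pan, FBgn0085432, chromosome 4, 69326 to 114270, plus strand, 44945 bp) encodes TCF, the DNA-binding partner of Armadillo. Its region had 1 IDR summit, which lay outside the gene, 2020 bp upstream of its first start site and 99 bp upstream of the start of RpS3A, a ribosomal protein gene. The pooled signal was 194, with replicate signals of 94.8, 39.9 and 56.9. Inside pan the pooled list held 1 summit, an intronic one with a signal of 50.8. Summits at the pan promoters appeared only as weak entries of replicates 1 and 2, with signals of 23.3, 18.9 and 13.2. The sequence shown for this region is therefore the RpS3A promoter, and no IDR summit lay in pan itself.

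CtBP (FBgn0020496, 3R, 13011649 to 13026275, plus strand, 14627 bp) encodes a corepressor that acts with sequence-specific repressors and modulates Wingless targets. Its only IDR summit lay 865 bp downstream of a start site, in the first intron, with a pooled signal of 308. The replicate signals were 143, 82.1 and 69.2, with ranks of 1378, 1301 and 1291. The 201 bases around it were also the richest in G and C of all 35, at 50.2%, compared with a median of 30.8% over the members and 33.8% over all IDR summits. It lies in the region of CG8031 as well.

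Naked cuticle (nkd, FBgn0002945, 3L, 19003741 to 19045449, minus strand, 41709 bp) is induced by Wingless and encodes a feedback inhibitor that binds Dishevelled. It had 7 IDR summits. The strongest lay in the first intron, 3607 bp from the start site, with a pooled signal of 562 and replicate signals of 282, 142 and 132. Its neighbour at 2778 bp followed with replicate signals of 208, 112 and 87.9. Their ranks were 404, 506 and 412 for the first and 742, 786 and 892 for the second. On the other side of the start site were a promoter summit at 167 bp, with replicate signals of 99.2, 70.8 and 39.0, and an intergenic one at 1073 bp, with 136, 54.4 and 35.1. The remaining 3 lay within the 33245 bp first intron, 12113 to 28840 bp from the start site, with weaker pooled signals of 150.1 to 194. One of them fell in an exon of the long non-coding RNA gene lncRNA:CR45940, 564 bp from its start.

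Over the 9 regions, 28 of the 35 IDR summits (80%, 95% Wilson interval 64.1 to 89.96%) lay in introns, 27 of them in an intron of the member itself. The share was 40.7% over all IDR summits. Promoters, the 500 bp to either side of any start site, held 4 of the 35 (11.4%, interval 4.54 to 26.0%), compared with 41.3% overall. Of these 4, 3 lay at a start site of the member itself. Long genes have more intron sequence. Among the IDR summits in regions of genes of 10 kb and over, 64.1% were intronic and 29.7% in promoters. The intervals do not test the members against these values, since the genes were listed with earlier results of these data known. Of the 35 summits, 29 came from fz, fz2, dlp and nkd. The 35 also include the dsh summit, which belongs to the region of a gene shorter than 10 kb. Of the 27 summits in own introns, 16 were in the first intron of at least 1 transcript. Intervals cover counting error only, and summits of a single gene are not independent of each other.

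The IDR set was made from the same 3 libraries, so presence in the replicates is partly built in. A stricter match required a peak among the 4555 strongest of a replicate to cover at least 50% of the IDR peak. By this measure 34, 31 and 30 of the 35 were matched in replicates 1, 2 and 3, and 27 (77.1%, interval 61.0 to 87.9%) in all 3, against 73.4% of all IDR peaks. The unmatched 8 included the sgg promoter, whose replicate 3 peak was strong, at rank 144, but only 119 bp wide. The other 7 were weak intron summits of fz, fz2, dlp and nkd. The difference between the highest and the lowest percentile of a summit over the replicates had a median of 5.12 points, compared with 4.78 over all IDR peaks. It exceeded 15 points at 4 summits, 1 of fz and 3 of fz2, and replicate 3 was the lowest at each of these.

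**Figure D3:**
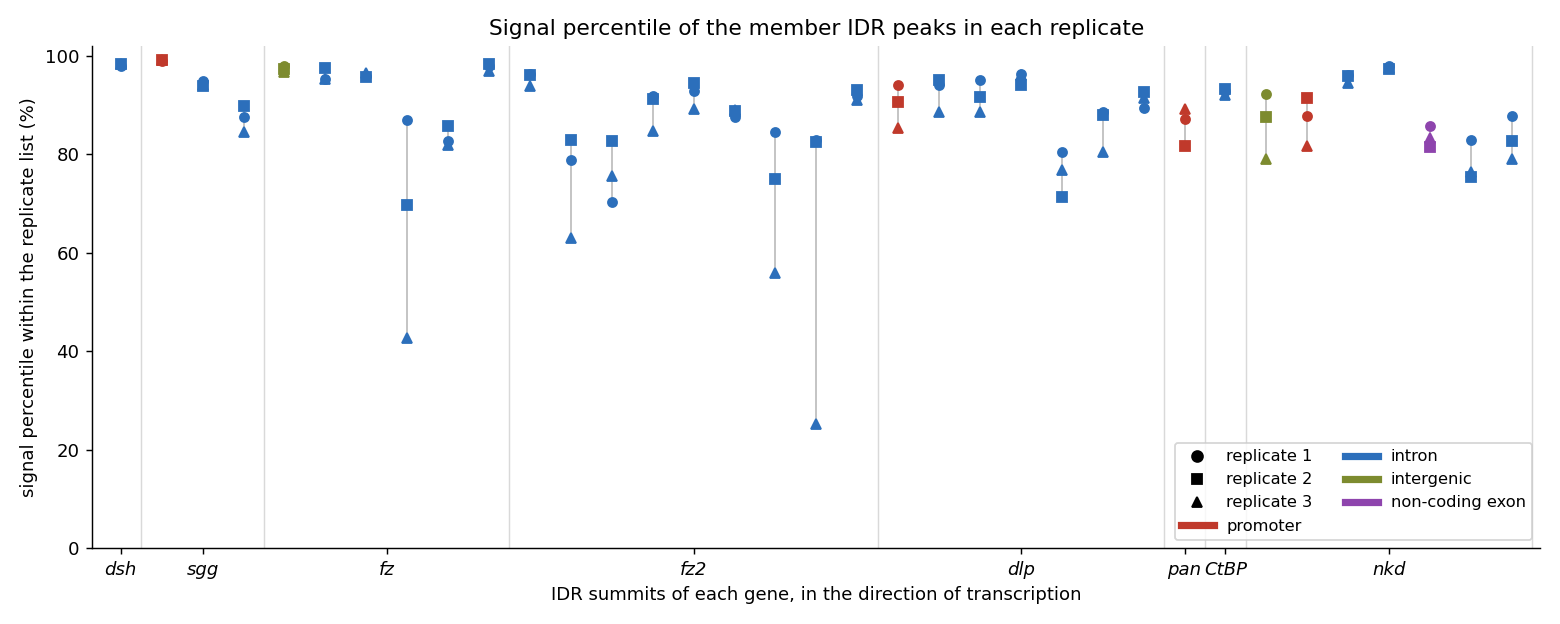
Percentile of the signal within each replicate list (vertical axis, percent) for the 35 IDR summits of the members, ordered along the horizontal axis by gene and in the direction of transcription. Circles, squares and triangles are replicates 1, 2 and 3, colours give the feature class, and grey lines join the replicates of a summit. Most summits stay above 80 in every replicate, and the long lines in fz and fz2 end at replicate 3.

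Some summits of the members lay close together. Another IDR summit lay within 1000 bp of 12 of the 35 (34.3%), compared with 22.0% of all IDR summits. The member regions also held more IDR summits per 10 kb, as given above, and the closeness was not compared at equal density. The 12 formed 6 pairs, in sgg, fz2, dlp and nkd. When the summits of the replicate lists were linked over gaps of up to 200 bp, the member regions held 156 sites. Of these, 48 (30.8%) had a summit in all 3 lists, 24 in 2 and 84 in 1. Over the genome 23.4% of such sites were in all 3 lists. For fz2 the figures were 12 of 42 sites, for fz 9 of 34, for nkd 9 of 31 and for dlp 7 of 18.

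Promoter and intron summits of the members were then compared in strength. In the pooled list the median signal was 248 for the 4 promoter summits, with a range of 194 to 839.9, and 261 for the 28 intron summits, with a range of 122 to 621. The ranges overlapped widely. Over all IDR summits the medians were 222 for promoters and 200.3 for introns. The median percentile of the members' promoter peaks in replicates 1, 2 and 3 was 90.9, 91.0 and 83.5, and that of their intron peaks was 91.9, 92.1 and 88.8. The promoter minus intron difference was therefore -0.92, -1.11 and -5.39 points, a mean of -2.47 ± 2.53 (SD, n = 3). It was negative in 3 of 3 replicates, but the exact two-sided sign-flip permutation test gave p = 0.25, the smallest value that 3 replicates allow. The lowest promoter value, in replicate 3, rests on the narrow sgg peak, which was unmatched there and given a percentile of 0. With any overlap accepted the mean was -1.21. The direction did not hold for all summits of the replicate lists in the member regions, which number 16, 11 and 7 in promoters and 91, 82 and 63 in introns. There the difference in median percentile was -19.6 points in replicate 1 but 13.1 and 19.9 in replicates 2 and 3. Over all IDR peaks the same difference had the opposite sign, with a mean of 1.45 ± 0.279 points (SD, n = 3, exact p = 0.25). A comparison of 4 summits with 28 does not separate the classes beyond their spread.

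**Figure D4:**
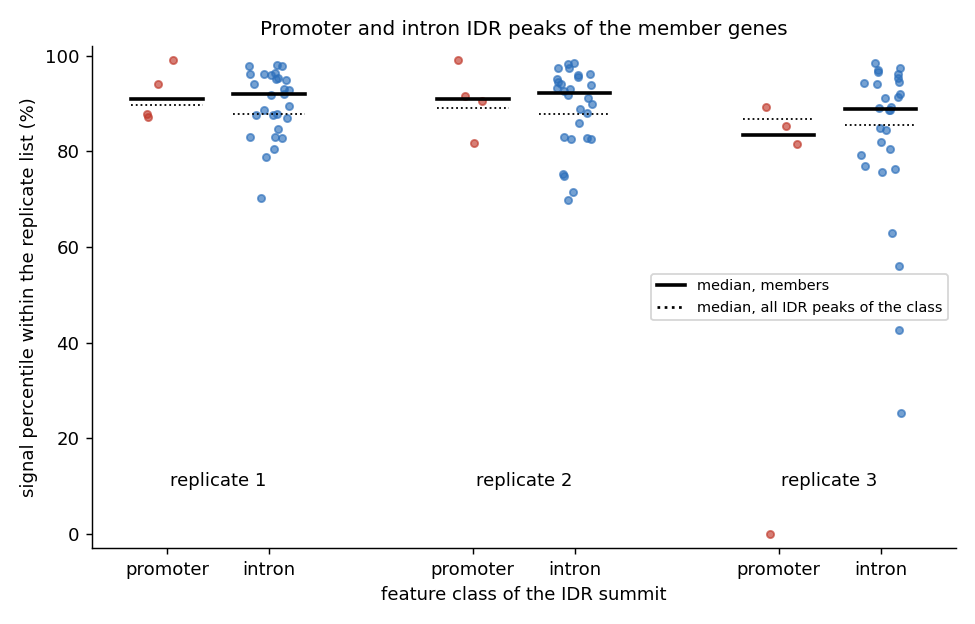
Percentile of the signal within the replicate list (vertical axis, percent) for the 4 promoter and 28 intron IDR peaks of the members, in each of the 3 replicates. Points are peaks, solid bars are medians of the members, and dotted bars are medians over all IDR peaks of the class, and the point at 0 in replicate 3 is the sgg promoter. The classes overlap in every replicate, with medians between 83.5 and 92.1.

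The patterns in the sequences were counted within 100 bp of each summit, on both strands, and a match is a description of the letters only. TATAAA, the core of the TATA box, was the most frequent, at 16 of the 35 summits (45.7%), against 37.8% of all IDR summits. All 4 promoter summits held it, and in the sgg sequence shown above the match reads TTTATAAA, which counts on both strands. The share over all promoter IDR summits was not counted, so the 4 have no background of their own class. Among intron summits TATAAA was at 35.7% for the members and 36.4% for all IDR summits. AACAAT, the core that Sox proteins favour, was at 6 summits (17.1%, 24.6% of all), all of them intronic. That is 21.4% of the 28 intron summits of the members, compared with 24.6% of all intron IDR summits. AACAAT occurred 3 times in the dlp first intron sequence, which is also the sequence with the lowest share of G and C of those shown. ACAAAG, related to both TCF and Sox sites, was at 7 (20%, 13.2% of all), and CTTTGA, the TCF core, at 3 (8.57%, 13.1% of all). The fz2 sequence shown carries a match to the TCF core, one to the related form, one to the GAGA repeat and 2 to the TATA box core. GAGAG was at 10 summits (28.6%, 19.0% of all), AGATAA at 6 (17.1%, 15.2% of all), TAATTA at 5 (14.3%, 19.3% of all) and CAGCTG at 2 (5.71%, 6.92% of all). TATCGATA was at 0 of 35, and at 1.95% of all IDR summits. The strongest summits of fz, dsh, dlp and nkd hold none of the 9 patterns within the 101 bases shown. Within the 100 bp to either side used for the counts, only the dsh summit still held none. In this wider window the dlp summit held 1 match to the Sox core. Those of fz and nkd held matches to other patterns, among them the homeodomain core, but none to the Sox core.

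For context, 33 other genes of the pathway were counted in the same way. An IDR summit lay in the region of 19 of them (57.6%), and within 1000 bp of an own start site in 7. By role, it was 5 of 7 ligand genes, 0 of 2 genes of ligand secretion, 4 of 7 cell surface genes, 5 of 8 genes of the destruction complex and its kinases, and 5 of 9 nuclear factors. Their 44 summits were 18 in promoters and 24 in introns, compared with 4 and 28 for the members. These genes and the members were not matched by length. The share of genes with a summit and the promoter share both differ with gene length, as given above. The strongest were promoter summits of gish, a casein kinase gene, with a pooled signal of 1397 at 148 bp from the start, and of gro, the corepressor Groucho, with 915 at 144 bp. Both exceeded the sgg promoter. The next were skd, a Mediator subunit gene, with 485 at the start of its neighbour CG10584, and arr, the Wingless coreceptor, with 457 in an intron. Signals of 395 for dco, 372 for Apc2, 355 for nej and 276 for dally completed the 8 highest. The Apc2 summit lay at the start of TBC1d7, and so had the same arrangement as those of skd, dsh and pan, in the region of the pathway gene but nearest to the start of another. The strongest summits of arr, fz and fz2 were also nearest to the start of another gene. That of nej lay 651 bp from its own start and 472 bp from that of lncRNA:CR42657.

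**Figure D5:**
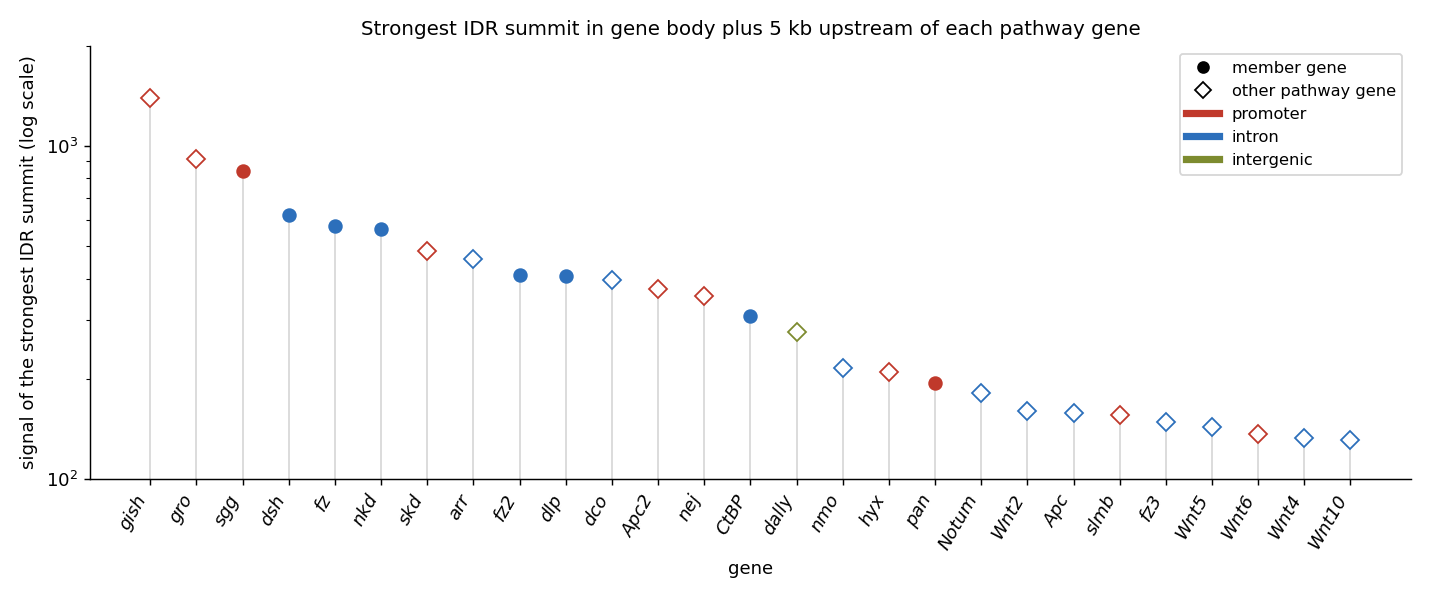
Signal of the strongest IDR summit in the pooled list (vertical axis, log scale) for the 27 pathway genes that have one in the gene body plus 5 kb upstream, ordered by signal. Filled circles are the 8 members and open diamonds the 19 other genes, and colours give the feature class of the summit. The values run from 131 to 1397, with sgg behind gish and gro.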

How the data were processed

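The deposited files are peak lists of 3 replicates, of the pooled replicates and of an IDR set, and only those in dm6 coordinates were used, since positions were never converted from dm3. Per the listing of the files, a control file was among the inputs of the lists. The software for alignment and peak calling is not given in the sources used here. The authors' files hold a signal, whose scale is not stated, and a deposited −log10 q-value for every peak, and the deposited summit was taken as its position. The authors' replicate lists were called per sample and the IDR peaks are pooled peaks above a signal threshold, as checked on the files. Read counts were not given, so the depth is unknown and precision is limited by 3 libraries.

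Gene models came from an Ensembl annotation of BDGP6, without transposable elements, and sequence from RefSeq Release 6. A summit in a promoter (within 500 bp of a start site) was classed there, and otherwise by exon type, intron or intergenic sequence. The members and lists were chosen with earlier results of these data known, so members were described beside all genes or all IDR summits, and only the promoter and intron percentiles were tested, by exact sign flips over replicates. An IDR peak with no replicate peak covering 50% of it was given percentile 0. All members were named, with up to 8 other pathway genes by signal. Alternatives changed the upstream length, threshold, position, promoter window, overlap and replicates. Peak matching was checked on simulated data. Python 3.11.15, pandas 2.3.3, numpy 2.4.6, scipy 1.17.1 and matplotlib 3.10.9 were used.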

Additional observations from a re-analysis of the deposited data

How the results depend on the processing

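The number of genes with an IDR summit was 6 to 9 of 9 under every alternative tried, and the promoter share 8.57 to 22.9%. The count of 35 IDR summits became 23 with the strongest 50% of the IDR peaks and 84 with all pooled peaks, by construction. Peaks matched in all replicates fell from 27 to 11 when 90% of the IDR peak had to be covered. The promoter minus intron difference changed sign to 1.26 points (exact p = 0.75) with a promoter window of 1000 bp, the cause was not tested, and it ranged from -19.0 to -1.02 points on the percentile scale under the other alternatives (exact p 0.25 to 1). Its value was -0.15 on the log2 scale. Without each replicate in turn, the difference was -3.25 to -1.02. The IDR set was not called anew for this, so the counts are of its peaks matched in both other replicates, which were 28 to 30 summits in 8 genes. The promoter and intron values were compared within each replicate, and with 1 group there was no pairing of samples across groups to fit. With 3 replicates the test cannot go below 0.25, and with 4 promoter summits the comparison of classes rests on few positions.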

Other observations

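Besides the IDR summits, 13 sites in the member regions had a summit in all 3 replicate lists without reaching the IDR set. They were 3 sites each of sgg, fz and fz2, 2 of arm and 2 of nkd, and 11 of the 13 were intronic. At fz, for example, a site 29095 bp from the start had signals of 64.4, 30.1 and 24.1 in replicates 1, 2 and 3.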
